A study of Rattus norvegicus with 12 samples.

Results

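The effect of *Alivec* knockdown on gene expression in angiotensin II (AngII)-treated rat vascular smooth muscle cells (RVSMCs) was examined on 6 of the 12 Clariom S rat arrays of the study. These were the 3 arrays of cells transfected with a GapmeR against *Alivec* (*Alivec*Gap) and treated with AngII, and the 3 arrays of cells transfected with a non-targeting control GapmeR (NCGap, written NGGap in the sample titles) and treated with AngII. Both GapmeRs were used at 100 nM, with 48 h of transfection in the labels, and AngII was given at 100 nM for 3 h. The other 6 arrays held *Alivec*Gap and NCGap cells that received PBS in place of AngII. The cells were grown from the thoracic aorta of male Sprague-Dawley rats, aged 12 weeks, after the endothelium was removed, and were serum depleted before AngII. *Alivec* knockdown rested on 1 GapmeR sequence, and the arrays carry no probe set named for *Alivec*, and whether an unnamed probe set covers it is not known, so its own knockdown was not assessed here.

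AngII is a vasoconstrictor peptide that acts on VSMCs mainly through the AngII type 1 receptor, a G protein-coupled receptor, and within hours induces immediate early genes, growth factors and matrix genes. In diseased vessels VSMCs can lose contractile genes and take up features of fibroblasts, inflammatory cells or chondrocytes. *Alivec* is a long non-coding RNA next to *Acan*, the gene of the cartilage proteoglycan aggrecan. A GapmeR is a short antisense oligonucleotide with a DNA core between locked nucleic acid ends, and RNase H cleaves the RNA to which it binds, also in the nucleus.

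Each value is a log2 signal of a probe set, so a difference of 1 is a doubling of signal. A probe set was tested where it reached a log2 signal of 6 on at least 3 of the 12 arrays, which kept 14796 of 23188, and 10184 named genes counted once. The arrays were even, with medians of 6.68 to 6.76 and 59.8% to 62.2% of probe sets at 6 or more, and correlations between an *Alivec*Gap and an NCGap array with AngII were 0.989 to 0.9928. The labels call the arrays biological replicates. The p values measure the spread within the 4 groups of all 12 arrays, PBS arrays included, and limma moderates it over the probe sets. All 8 smooth muscle markers were detected, with *Tagln* at mean log2 signals of 13.06 with *Alivec*Gap and 13.07 with NCGap, and *Acta2* at 12.36 and 12.41. Of the markers of other cells, 9 of 14 of endothelium (*Pecam1* and *Cdh5* among them), 12 of 17 of leukocytes (*Ptprc*), 4 of 7 of adipocytes (*Adipoq*), 3 of 7 of Schwann cells (*S100b*) and 3 of 14 of fibroblasts (*Cd34*) were below 6 on every AngII array. Others were detected, such as *Eng* at 9.38 with *Alivec*Gap and 9.24 with NCGap, *C1qa* at 8.19 and 8.20 and *Pmp22* at 11.12 and 10.94.

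By limma, 71 probe sets were lower (0.48% of those tested) and 50 were higher (0.338%) after *Alivec*Gap with AngII at a p under 0.05 after Benjamini-Hochberg adjustment. The study itself called genes at an unadjusted p under 0.05 with a change of 1.2-fold or more, and by these study thresholds 480 were lower (3.24%) and 423 higher (2.86%). Where both group means were 6 or more, the log2 fold change was -0.29 to -0.96 in 67 of the 71 lower and 0.32 to 0.89 in 43 of the 50 higher probe sets, and the median standard error over all tested was 0.0975. In 9 of the 121 1 group mean was under 6, so that only a bound can be given, and in 2 both were. The groups did not overlap in any of these 121 probe sets, as in 9.65% of all tested probe sets in the lower and 8.60% in the higher direction. Leaving out any 1 of the 6 AngII arrays left 11 to 39 lower and 6 to 34 higher probe sets at the adjusted threshold. Of named genes counted once, 48 fell (0.471%) and 39 rose (0.383%), and the groups did not overlap in 9.93% in the lower and 8.92% in the higher direction. By the study thresholds 323 named genes were lower (3.17%) and 316 higher (3.10%), the shares to set beside the gene lists below.

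**Figure D1:**
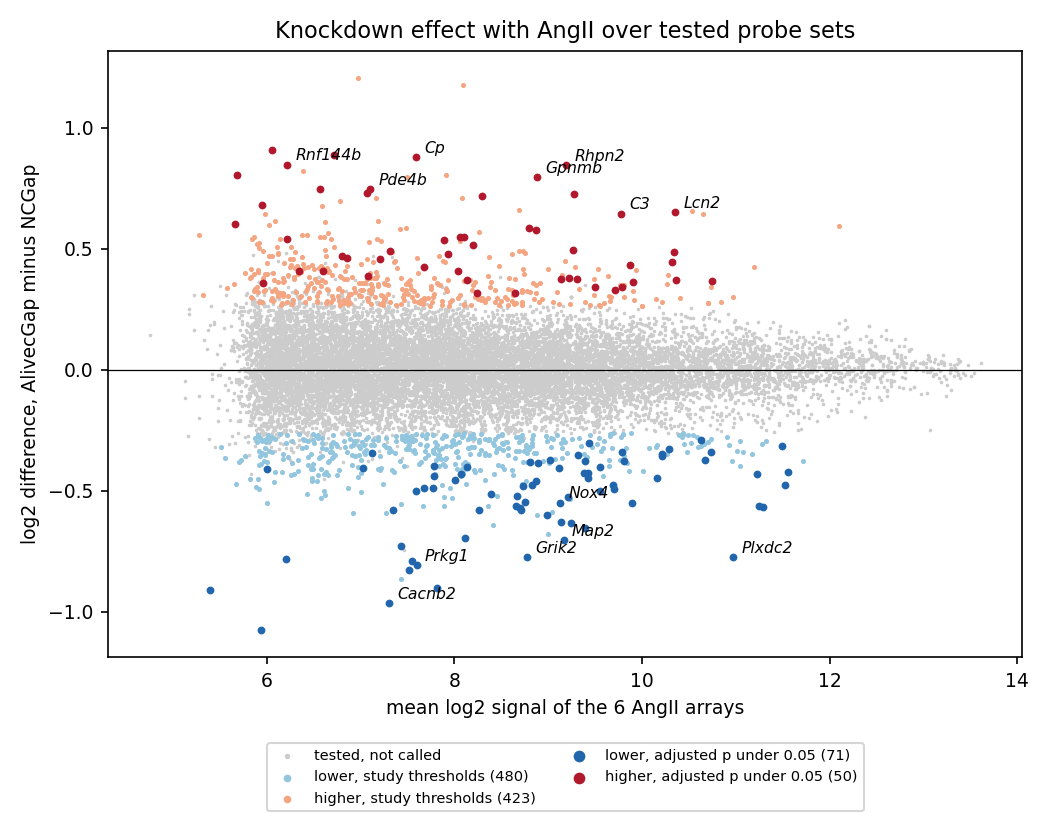
Difference in log2 signal between *Alivec*Gap and NCGap with AngII (vertical axis) against the mean log2 signal of the 6 AngII arrays (horizontal axis) for 14796 probe sets. Dark points are the 71 lower and 50 higher probe sets at an adjusted p under 0.05, and light points those at the thresholds of the study.

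Among the 15 named genes with the largest falls were the calcium entry gene *Cacnb2* and the cGMP pathway gene *Prkg1*. Calcium entry and cGMP set the tone of smooth muscle. *Cacnb2*, which encodes a beta subunit of voltage-gated calcium channels, had log2 signals of 6.74, 6.83 and 6.91 with *Alivec*Gap, against 7.75, 7.70 and 7.92 with NCGap. It fell to 0.513 of its NCGap level (log2 fold change -0.96, standard error 0.0823, adjusted p = 8.8e-04). *Cacna1c*, which forms the pore of L-type channels, had 8.25, 8.43 and 8.26 with *Alivec*Gap, against 8.74, 8.66 and 8.73 with NCGap. Its groups did not overlap either, and its adjusted p was 0.0593. These were the only 2 of 29 tested genes of calcium channels and calcium handling that were lower at the study thresholds (6.9%), and none was higher. Both span at least 100 kb in the genome, as did 13 of the 29. The median of the list was -0.07 on the log2 scale, against 0.01 over all tested named genes. Without the third NCGap replicate 4 of the list were lower at the study thresholds.

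*Prkg1*, the cGMP-dependent protein kinase through which nitric oxide relaxes smooth muscle, had 7.45, 7.12 and 7.0 with *Alivec*Gap, against 7.98, 8.0 and 8.02 with NCGap. It fell to 0.572 of its NCGap level (log2 fold change -0.81, standard error 0.102, adjusted p = 0.0046), with NCGap arrays close together and *Alivec*Gap arrays spread more widely. *Pde4b*, which degrades cAMP, moved the other way, at 7.62, 7.33 and 7.49 with *Alivec*Gap against 6.58, 6.62 and 7.0 with NCGap. It rose 1.68-fold (adjusted p = 0.0203), and its lowest *Alivec*Gap array was above its highest NCGap array. *Pde3b*, another phosphodiesterase, differed by -0.41 on the log2 scale with an adjusted p of 0.0593. Over the 30 tested genes of cyclic nucleotide signaling, the study thresholds gave 2 lower and 2 higher (6.67% each), with a median of -0.01. Both lower genes span at least 100 kb, as did 1 of the higher and 12 of the 30.

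The list with the most lowered genes held receptors and adhesion and guidance proteins best known from neurons. Of its 26 tested members, 8 were lower (30.8%) and 0 higher at the study thresholds, beside 3.17% and 3.10% of all tested named genes, and 4 fell at the adjusted threshold. *Grik2*, a kainate-type glutamate receptor subunit, had 8.28, 8.53 and 8.37 with *Alivec*Gap, against 9.09, 9.22 and 9.19 with NCGap, and fell to 0.585 of its NCGap level (adjusted p = 0.0023). *Map2*, which binds microtubules, had 8.54, 8.92 and 8.98 with *Alivec*Gap, against 9.42, 9.59 and 9.54 with NCGap (adjusted p = 0.0138). In both genes every *Alivec*Gap array lay below every NCGap array. *Tenm3*, a teneurin that pairs cells across synapses, fell by 0.58 (adjusted p = 0.0043), and *Nrg1*, the ligand of ErbB receptors, by 0.29 (adjusted p = 0.0452). *Slit2*, *Lsamp* and *Lrrtm3* were lower by 0.31 to 0.37 at the study thresholds, with adjusted p from 0.0712 to 0.083. All 8 lower members span at least 100 kb in the genome, as did 21 of the 26 tested and 11% of all tested named genes. At the study thresholds 9.25% of all named genes of 100 to 300 kb were lower, and 30.4% of those of 300 kb or more.

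Of 19 tested cadherins, protocadherins and integrins, 3 fell at the adjusted threshold, as did 0.471% of all tested named genes. *Cdh11*, a cadherin of mesenchymal cells, had 10.83, 11.10 and 10.98 with *Alivec*Gap, against 11.55, 11.52 and 11.53 with NCGap, and fell to 0.677 of its NCGap level (adjusted p = 0.0118). *Itga1*, the collagen-binding integrin alpha-1 chain, had 10.87, 11.12 and 11.05 with *Alivec*Gap, against 11.43, 11.46 and 11.45 with NCGap (adjusted p = 0.0265). Both are among the brighter probe sets, and the groups were apart in both. *Pcdh18*, a protocadherin, fell by 0.40 (adjusted p = 0.0426), while *Cdh2*, N-cadherin, was higher by 0.33 at the study thresholds only (adjusted p = 0.231). Over the 19 genes, 4 were lower (21.1%) and 1 higher (5.26%) at the study thresholds, beside 3.17% and 3.10% of all tested named genes. The median was -0.01. Of the 4 lower genes 3 span at least 100 kb, as did the higher one and 9 of the 19.

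Enzymes and surface proteins made up most of the other large falls. *Plxdc2*, a membrane protein with a plexin domain, had 10.43, 10.66 and 10.68 with *Alivec*Gap, against 11.42, 11.32 and 11.35 with NCGap (log2 fold change -0.77, standard error 0.0787, adjusted p = 0.0015). *Nox4*, the NADPH oxidase of VSMCs that makes hydrogen peroxide, had 8.72, 9.02 and 8.81 with *Alivec*Gap, against 9.39, 9.41 and 9.40 with NCGap (adjusted p = 0.0227). *Enpp1*, which makes the calcification inhibitor pyrophosphate, had 11.15, 11.36 and 11.36 with *Alivec*Gap, against 11.80, 11.77 and 11.73 with NCGap (adjusted p = 0.0203). The *Alivec*Gap arrays were below the NCGap arrays in all of them. *Tll1*, a protease that matures procollagens, fell by 0.60, *Pla2r1*, a phospholipase A2 receptor, by 0.58 and *Slc1a3*, a glutamate transporter, by 0.58. *Zc3h12c*, a protein of the RNA-degrading Regnase family, fell by 0.66, *Usp54*, of the ubiquitin-specific protease family, by 0.63, *Lpgat1*, a lysophospholipid acyltransferase, by 0.63 and *Dok5*, an adaptor of receptor tyrosine kinases, by 0.57. *Pard3b*, a polarity protein, had a mean of 5.81 with *Alivec*Gap, under the detection level of 6, and 6.59 with NCGap, so that it was at least 1.51-fold lower. Of these 15 genes *Cacnb2*, *Plxdc2*, *Grik2*, *Tenm3* and *Tll1* kept an adjusted p under 0.05 in all 23 alternative fits. They are among the 12 of the 15 that span at least 100 kb, as did 11% of all tested named genes.

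**Figure D2:**
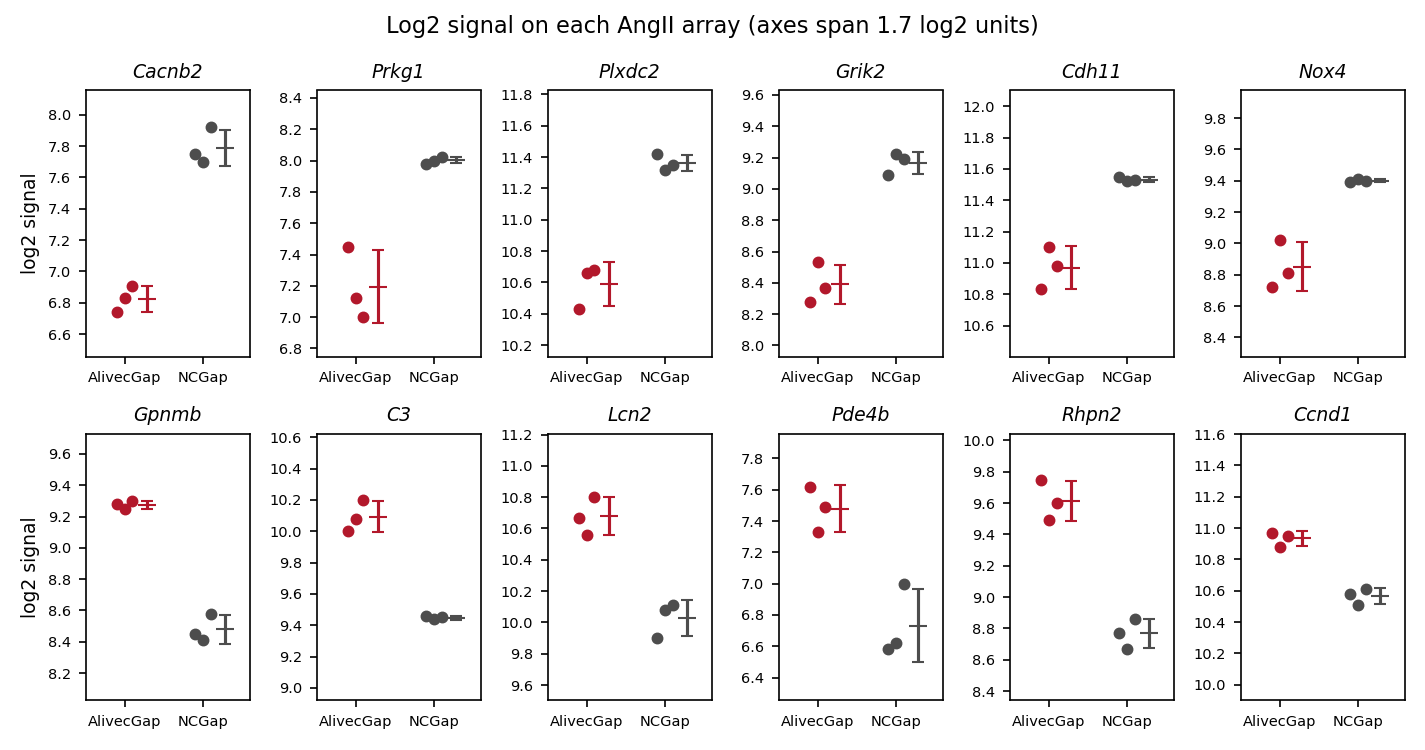
Log2 signal of 12 genes on each of the 3 *Alivec*Gap and 3 NCGap arrays with AngII (points, one array each), with the mean and SD beside them. Each axis spans 1.7 log2 units, and the groups do not overlap in any of the 12 genes.

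The study names 5 chondrogenic genes, *Acan*, *Tnfaip6*, *Runx1*, *Olr1* and *Spp1*, which it named with the results of these arrays known, *Acan* also as the neighbor of *Alivec*, so their direction is not independent evidence. Apart from the arrays, the study reported these genes lower by RT-qPCR after knockdown, and several of them higher after *Alivec* overexpression. On the arrays all 5 were lower at the study thresholds, none passed the adjusted threshold, and their median was -0.59. *Olr1*, the receptor of oxidized LDL, had 8.50, 8.82 and 8.64 with *Alivec*Gap, against 9.14, 9.5 and 9.35 with NCGap (log2 fold change -0.68, standard error 0.161, adjusted p = 0.0816). *Tnfaip6*, a hyaluronan-binding protein induced by inflammation, had 8.47, 8.61 and 8.68 with *Alivec*Gap, against 9.07, 9.28 and 9.21 with NCGap (adjusted p = 0.0546). *Runx1*, a transcription factor of early chondrogenesis, had 8.40, 8.93 and 8.89 with *Alivec*Gap, against 9.33, 9.18 and 9.48 with NCGap (adjusted p = 0.0719). In all of these the groups were apart, and the first *Alivec*Gap replicate of *Runx1* lay well below the others. *Spp1*, osteopontin, averaged 11.53 ± 0.0723 with *Alivec*Gap and 11.91 ± 0.0164 with NCGap (SD, n = 3 each, adjusted p = 0.0606). *Acan* had the smallest difference, at 9.51, 9.60 and 9.45 with *Alivec*Gap against 9.82, 9.77 and 9.79 with NCGap (0.828 of the NCGap level, adjusted p = 0.259).

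The letters TGANTCA (N is any base), a binding motif of AP-1 factors such as Fos and Jun that AngII induces, occur on either strand in the RefSeq promoters (250 bases before to 50 after the gene start, GRCr8) of 2 of these 5 genes and in 5.13% of 8487 promoters of tested named genes. Since AP-1 motifs are bound in cells stimulated by AngII, both stretches are shown 5′ to 3′ on the strand of the gene with the motif in capitals.
Tnfaip6: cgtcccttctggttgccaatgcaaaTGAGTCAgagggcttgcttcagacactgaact
Olr1: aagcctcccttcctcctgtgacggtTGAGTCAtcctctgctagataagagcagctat
The *Tnfaip6* stretch lies at chr3:56911181-56911237 on the plus strand, with the motif starting 192 bases before the gene start. That of *Olr1* lies at chr4:164634546-164634602 on the minus strand, 30 bases before the start. The letters lay in 2 of 42 promoters of the early AngII response list (4.76%), in 8.14% of those of all genes lower and in 7.42% of those of all genes higher at the study thresholds. A match is a description of these letters only.

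Few other genes of cartilage, calcification and contraction passed a threshold. Of 26 further genes of cartilage matrix and chondrogenesis, the study thresholds gave 1 lower (3.85%) and 2 higher (7.69%), with a median of -0.01. *Col11a1*, a cartilage collagen chain, was lower by 0.37 (adjusted p = 0.204), and *Fgfr3*, a growth factor receptor of chondrocytes, and *Runx2*, the osteogenic factor, were higher by 0.42 (adjusted p = 0.0668) and 0.34 (adjusted p = 0.326). Among 15 genes of calcification, the study thresholds gave 1 lower and 1 higher (6.67% each), beside 3.17% and 3.10% of all tested named genes. The lower one was *Enpp1*, and the higher one *Mgp*, the matrix Gla protein, at 0.35 above NCGap (adjusted p = 0.203). Of 29 contractile genes, 22 had a negative log2 fold change, beside 48.5% of all tested named genes. The groups did not overlap in the lower direction in 10 of the 29, beside 9.93% of named genes, and in the higher direction in 1, beside 8.92%. At the study thresholds 3 were lower (10.3%) and 0 higher, and 0 passed the adjusted threshold. Among them *Aoc3*, an amine oxidase of smooth muscle, was lower by 0.28 (adjusted p = 0.105). *Cnn1*, calponin, had 11.26, 11.29 and 11.29 with *Alivec*Gap against 11.53, 11.54 and 11.55 with NCGap, which was just under the 1.2-fold threshold (adjusted p = 0.0883). The mean of the 29 genes was 10.56, 10.65 and 10.64 with *Alivec*Gap, against 10.69, 10.71 and 10.70 with NCGap, with no overlap. Without the first *Alivec*Gap replicate none of the contractile genes was lower at the study thresholds.

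The genes that AngII itself induces within hours were set out by how they differed between GapmeRs. Of 57 tested early response genes, 7 were lower (12.3%) and 0 higher at the study thresholds, beside 3.17% and 3.10% of all tested named genes. Of the 57, 0 passed the adjusted threshold, and the median was -0.085. *Plaur*, the urokinase receptor, had 10.83, 11.22 and 10.94 with *Alivec*Gap, against 11.35, 11.33 and 11.35 with NCGap (adjusted p = 0.12). *Nfil3*, a bZIP repressor, had 11.07, 11.18 and 11.26 with *Alivec*Gap, against 11.45, 11.46 and 11.48 with NCGap (adjusted p = 0.0816). The differences were small beside the AngII induction: *Plaur* was 2.74 above its PBS level with *Alivec*Gap and 3.00 with NCGap on the log2 scale, and *Nfil3* 3.45 and 3.61. These inductions share the AngII arrays with the knockdown comparison. *Rcan1*, an inhibitor of calcineurin, and *Egr2*, a zinc finger factor, were lower by 0.31 and 0.27, and *Lif*, an IL-6 family cytokine, by 0.40. The mean of the 57 genes was 9.16, 9.29 and 9.29 with *Alivec*Gap and 9.30, 9.32 and 9.37 with NCGap, so the first *Alivec*Gap replicate was the lowest, and without it 3 genes were lower. *Agtr1a*, the AngII type 1 receptor, had 9.34, 9.46 and 9.58 with *Alivec*Gap, against 9.69, 9.85 and 9.95 with NCGap, a level of 0.773 of NCGap (adjusted p = 0.0805).

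Among the raised genes, proteins of the acute phase response and of complement stood together. Of 14 tested members, 5 (35.7%) were higher by the study thresholds and 0 lower, beside 3.10% and 3.17% of all tested named genes. At the adjusted threshold 3 rose, and the median was 0.22. *C3*, the central complement component, had 10.00, 10.08 and 10.20 with *Alivec*Gap, against 9.46, 9.44 and 9.45 with NCGap (1.56-fold, standard error 0.0747 on the log2 scale, adjusted p = 0.003). *Lcn2*, lipocalin-2, which binds bacterial siderophores, had 10.67, 10.56 and 10.80 with *Alivec*Gap, against 9.90, 10.08 and 10.11 with NCGap (1.57-fold, adjusted p = 0.0186). *Cp*, the ferroxidase ceruloplasmin, had 8.05, 7.88 and 8.17 with *Alivec*Gap, against 7.22, 7.09 and 7.14 with NCGap (1.84-fold, adjusted p = 0.0372). In all of these each *Alivec*Gap array was above each NCGap array. *Serping1*, the C1 inhibitor, averaged 8.31 with *Alivec*Gap and 7.51 with NCGap (adjusted p = 0.0656), and *C1s*, a complement protease, 8.55 and 7.98 (adjusted p = 0.115). *Lbp*, the lipopolysaccharide-binding protein of the acute phase, was not on the list and had 8.61, 8.57 and 8.78 with *Alivec*Gap, against 7.82, 7.91 and 8.07 with NCGap (adjusted p = 0.0108). The mean over the 14 genes was 8.14, 8.19 and 8.21 with *Alivec*Gap, against 7.86, 7.86 and 7.88 with NCGap.

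Both *C3* and *Lcn2* are known targets of NF-kappa-B, and GGGA followed after any 4 bases by CC, a core of its sites, lies in 5 of the 9 promoters of the acute phase list and in 24.9% of all 8487 promoters, counting either strand. The first match of each is shown in capitals, and in *Lcn2* a pair of matches on opposite strands overlap.
C3: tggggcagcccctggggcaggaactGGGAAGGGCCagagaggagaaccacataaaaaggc
Lcn2: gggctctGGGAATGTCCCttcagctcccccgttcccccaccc
The *C3* stretch is chr9:2201374-2201433 and that of *Lcn2* chr3:36081989-36082030, both on the minus strand, with matches starting 69 and 243 bases before the gene starts. Promoters of the genes that were higher at the study thresholds held the motif in 26.6% and those of the lower genes in 27.1%, close to all promoters.

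Of 31 genes of cytokines, chemokines and NF-kappa-B, the study thresholds gave 4 higher (12.9%) and 1 lower (3.23%), and 2 higher without the third *Alivec*Gap replicate. *Sod2*, the mitochondrial superoxide dismutase and an NF-kappa-B target, had 10.55, 10.40 and 10.70 with *Alivec*Gap, against 10.14, 10.17 and 10.23 with NCGap and rose 1.29-fold (adjusted p = 0.0452). *Cd14*, a co-receptor for lipopolysaccharide, had 6.28, 6.07 and 6.56 with *Alivec*Gap, against 5.37, 6.11 and 5.49 with NCGap, and its groups overlapped.

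Most interferon-stimulated and antigen processing genes had a positive log2 fold change, and none passed the adjusted threshold. Interferon response genes encode antiviral proteins and are switched on by STAT and IRF factors, and the TAP and tapasin proteins load peptides on MHC class I. Of 26 tested members, 24 had a positive log2 fold change, as did 5245 of all 10184 tested named genes. By the study thresholds 11 (42.3%) were higher and 0 lower, beside 3.10% and 3.17% of all tested named genes. The median was 0.30. *Ifi44* had 8.99, 8.90 and 9.15 with *Alivec*Gap, against 8.22, 8.30 and 8.54 with NCGap (1.58-fold, standard error 0.194 on the log2 scale, adjusted p = 0.175). *Irf7*, the IRF that amplifies the type I response, had 7.39, 7.54 and 7.55 with *Alivec*Gap, against 6.85, 6.76 and 7.02 with NCGap (adjusted p = 0.197). *Ifi27* had 12.38, 12.32 and 12.49 with *Alivec*Gap, against 11.78, 11.60 and 12.03 with NCGap (adjusted p = 0.106). *Alivec*Gap arrays were above NCGap arrays in all of these. *Ifih1*, the RNA sensor MDA5, averaged 7.72 with *Alivec*Gap and 7.13 with NCGap (adjusted p = 0.261). *Parp14* averaged 6.68 and 6.34 (adjusted p = 0.0926), *Bst2*, tetherin, 8.85 and 8.37, *Tap1* 8.77 and 8.50, and *Tapbp*, tapasin, 9.04 and 8.69. The mean of the 26 genes was 8.26, 8.17 and 8.37 with *Alivec*Gap, against 7.94, 7.83 and 8.09 with NCGap. The third replicate was the highest in both groups, and without the third *Alivec*Gap replicate 6 genes were higher at the study thresholds. Among 12 tested genes of RNase H, exonucleases and nucleic acid sensors, *Ifih1* was the only one at these thresholds.

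GAAA repeated after any 2 bases, the core of the interferon-stimulated response element that IRF and STAT complexes bind, was found on either strand in the promoters of 18 of the 23 list members with a RefSeq promoter (78.3%) and in 2.93% of all 8487 promoters. Of the 11 genes that were higher at the study thresholds 10 held it, *Mnda* being the exception. It lay in 7.81% of the promoters of all 256 genes that were higher at those thresholds and in 3.88% of the 258 that were lower. The 256 include these 11 genes, whose promoters made up 10 of the 20 with the motif. The list was composed of genes known to respond to interferon, so the motif share describes the list. The stretch around the first match is shown for 6 of these 10, with the motif in capitals, and TTTC marks it where it is on the other strand. The motifs were chosen after the values were seen.
Ifi44: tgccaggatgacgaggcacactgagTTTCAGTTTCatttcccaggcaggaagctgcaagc
Irf7: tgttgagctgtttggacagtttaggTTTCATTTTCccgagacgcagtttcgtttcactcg
Ifi27: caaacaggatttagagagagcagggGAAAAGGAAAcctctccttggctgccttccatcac
Ifih1: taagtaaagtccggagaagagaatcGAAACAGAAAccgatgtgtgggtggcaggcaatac
Parp14: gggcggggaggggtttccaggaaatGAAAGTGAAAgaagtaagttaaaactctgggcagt
Bst2: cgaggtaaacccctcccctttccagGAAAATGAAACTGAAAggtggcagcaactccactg
The stretches are chr2:243303832-243303891 for *Ifi44*, chr1:205800058-205800117 for *Irf7*, chr3:67683993-67684052 for *Ifih1* and chr16:18255064-18255123 for *Bst2* on the minus strand, and chr6:128355118-128355177 for *Ifi27* and chr11:78408033-78408092 for *Parp14* on the plus strand. The first match started 26, 69, 59, 131, 169 and 76 bases before the gene start in this order. In *Bst2* a pair of matches overlap.

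Of 32 tested cell cycle genes, 28 had a positive log2 fold change, as did 5245 of all 10184 tested named genes. The study thresholds gave 6 higher (18.8%) and 0 lower, beside 3.10% and 3.17% of all tested named genes. The median was 0.115. *Ccnd1*, cyclin D1, which takes cells through G1, had 10.97, 10.88 and 10.95 with *Alivec*Gap, against 10.58, 10.51 and 10.61 with NCGap, and rose 1.29-fold (adjusted p = 0.0203). *Mcm2* and *Mcm6*, subunits of the replicative helicase, were higher by 0.32 (adjusted p = 0.0709) and 0.53 (adjusted p = 0.12), and *Rrm1*, a ribonucleotide reductase subunit, by 0.38 (adjusted p = 0.109). *Gadd45a*, a growth arrest gene and a p53 target, rose 1.36-fold (adjusted p = 0.0152). Of the 23 tested p53 targets it and 1 other gene, *Rrm2b*, were higher at the study thresholds (8.7%) and 0 lower.

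**Figure D3:**
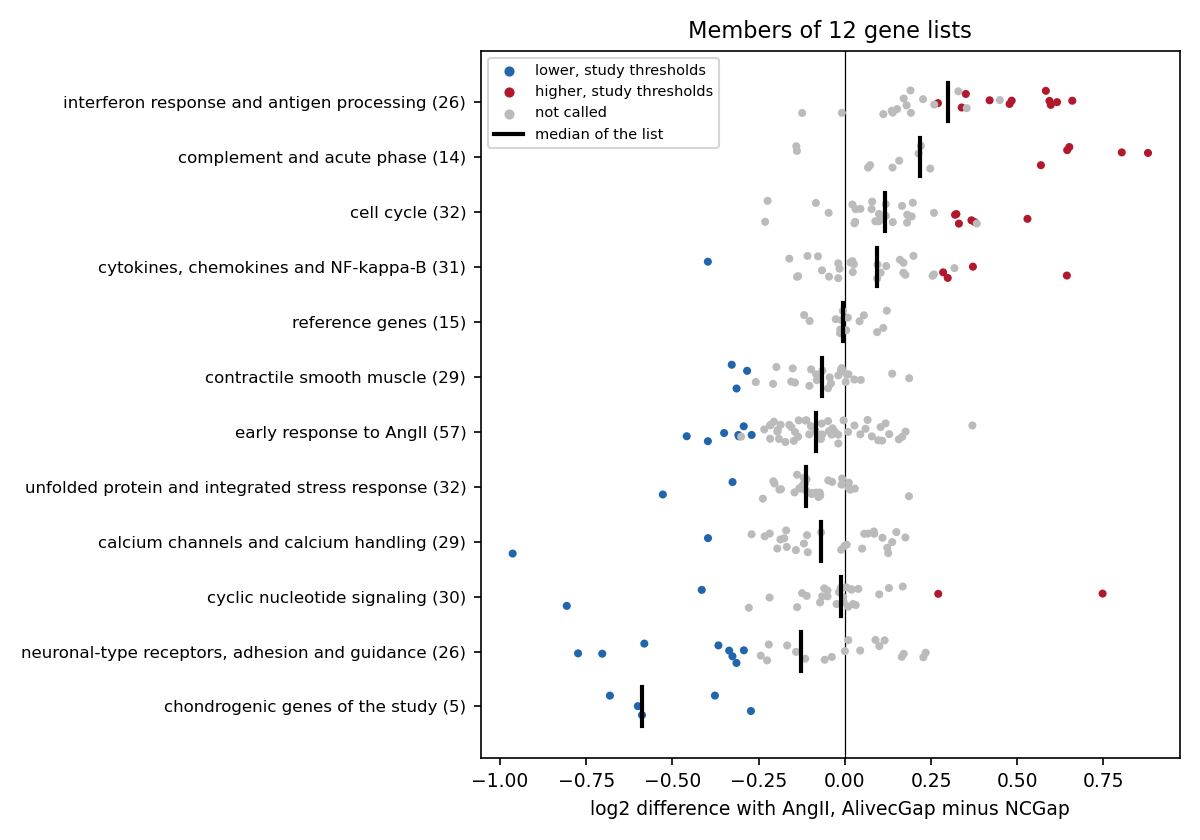
Difference in log2 signal between *Alivec*Gap and NCGap with AngII for the tested members of 12 gene lists (one point per gene, number of genes in parentheses, black bar at the median). Red and blue points passed the study thresholds; the 26 interferon genes have a median of 0.30 and the 15 reference genes one of -0.01.

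The largest single rises held genes of varied roles. *Gpnmb*, a lysosomal glycoprotein of macrophages and matrix-degrading cells, had 9.28, 9.25 and 9.30 with *Alivec*Gap, against 8.45, 8.41 and 8.58 with NCGap (1.74-fold, standard error 0.0769 on the log2 scale, adjusted p = 0.0011). *Rhpn2* had 9.75, 9.49 and 9.60 with *Alivec*Gap, against 8.77, 8.67 and 8.86 with NCGap (1.80-fold, adjusted p = 0.0048). *Slc7a2*, a cationic amino acid transporter that carries arginine, had 9.73, 9.56 and 9.61 with *Alivec*Gap, against 8.91, 8.62 and 9.19 with NCGap (1.65-fold, adjusted p = 0.0203). The groups were apart in all of these. *Stap2*, a signaling adaptor, rose 1.85-fold and *Mmp28*, a matrix metalloprotease, 1.66-fold (adjusted p = 0.0205 and 0.0118). *Cyp1a1*, the target of the aryl hydrocarbon receptor, *Rnf144b*, a ubiquitin ligase, *Gda*, guanine deaminase, and *Rpp25*, a subunit of RNase P, had NCGap means under 6, and were at least 1.43-, 1.56-, 1.06- and 1.22-fold higher with *Alivec*Gap. *Armt1*, a carboxyl methyltransferase, passed the adjusted threshold with both means under 6, at 5.97 and 5.36, so no fold is given. *C3*, *Gpnmb* and *Rhpn2* kept an adjusted p under 0.05 in all 23 alternative fits. *Rnf144b* and *Gda* reached 6 only on the 3 *Alivec*Gap arrays with AngII, and so passed the filter through the group in which they were high.

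Of 11 tested fibroblast markers, *Dcn* and *Mfap5* rose at the adjusted threshold, as did 0.383% of all tested named genes. Of the 11, 7 had a positive and 4 a negative log2 fold change. *Dcn*, the proteoglycan decorin, had 9.27, 9.0 and 9.21 with *Alivec*Gap, against 8.34, 8.72 and 8.68 with NCGap (1.49-fold, adjusted p = 0.0283), and *Mfap5*, a microfibril protein, 9.65, 9.33 and 9.54 against 8.89, 9.03 and 9.12 (1.41-fold, adjusted p = 0.0461). *Col14a1* was lower at the study thresholds, by 0.28, and the summed linear signal of all 14 named markers was 6854 to 7098 with *Alivec*Gap and 6421 to 6910 with NCGap. The summed signal of the 8 smooth muscle markers was 30782 to 31404 with *Alivec*Gap and 31982 to 33024 with NCGap. The part of cell composition in these results was not tested, and in bulk RNA fewer cells of a type and less RNA per cell cannot be told apart. *Adamts7*, a protease of the vessel wall, rose 1.45-fold, *Inhbb*, an activin subunit, 1.37-fold, *Fzd2*, a Wnt receptor, 1.27-fold and *Arhgap29*, a GTPase-activating protein, 1.26-fold, with adjusted p from 0.0427 to 0.0461.

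Lowered and raised genes differed in their genomic span. Of the 48 named genes that fell, 32 (66.7%) span at least 100 kb, and of the 39 that rose, 3 (7.69%). The median log2 fold change was 0.03 for 2996 genes under 10 kb, -0.05 for 919 genes of 100 to 300 kb and -0.165 for 204 genes of 300 kb or more, of which 30.4% were lower and 1.47% higher at the study thresholds. Set against the NCGap mean, the median of the longest class was -0.21, -0.14 and -0.16 on the 3 *Alivec*Gap arrays with AngII, while each NCGap array set against the other NCGap arrays gave -0.02 to 0.03. With PBS the 3 *Alivec*Gap arrays gave -0.14, -0.12 and -0.14. The shift was thus present on every *Alivec*Gap array, and its part in the calls for single long genes was not tested.

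**Figure D4:**
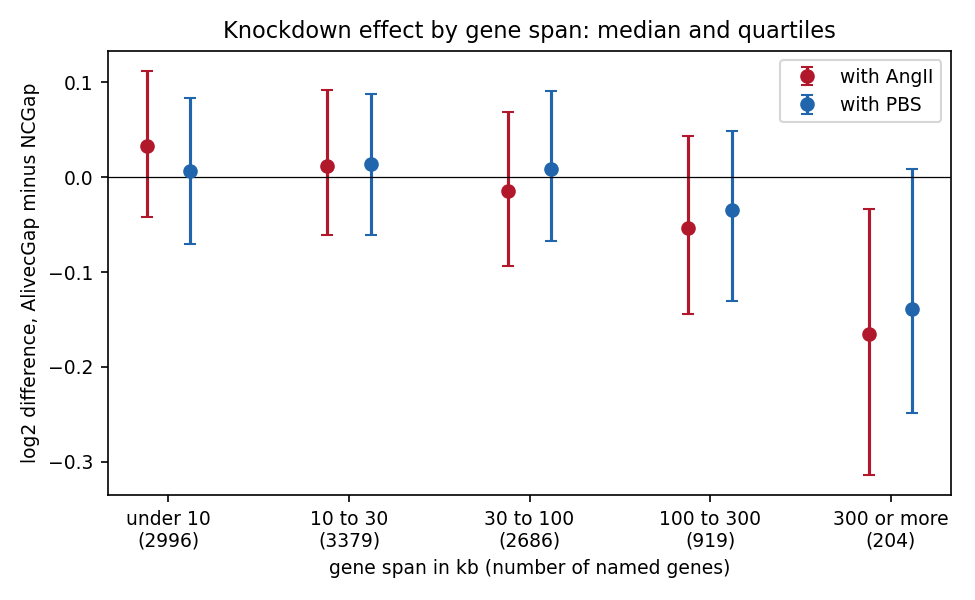
Median (point) and quartiles (bars) over named genes of the difference in log2 signal between *Alivec*Gap and NCGap, by genomic span in kb, with AngII and with PBS. The median of genes of 300 kb or more is -0.165 with AngII and -0.14 with PBS.

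The PBS arrays gave a second measure of the same knockdown, and the comparison with PBS shares no array with that with AngII. Both share the GapmeR and the estimate of spread, and the labels do not say whether they share cell preparations. With PBS, 398 probe sets were lower (2.69%) and 331 higher (2.24%) at the study thresholds, and 30 (0.203%) and 29 (0.196%) at the adjusted threshold; of named genes, 257 (2.52%) and 233 (2.29%), and 22 (0.216%) each way. Of the 71 lower probe sets, 68 (95.8%) were also negative with PBS, as were 49.0% of all tested probe sets, with a median of -0.31 against -0.48 with AngII. Of the 50 higher ones, 45 (90.0%) were positive with PBS, with a median of 0.27 against 0.49. At the study thresholds with PBS 45 of the 71 were lower and 25 of the 50 higher. Since the probe sets were chosen for their size with AngII, the smaller size with PBS is a description. The complement and acute phase list had medians of 0.22 with AngII and 0.315 with PBS, with 7 members higher with PBS at the study thresholds, the interferon list 0.30 and 0.27, with 12 higher, and the neuronal-type list -0.13 and -0.15. The early response genes had a median of -0.085 with AngII and -0.01 with PBS, where 1 was lower and 5 were higher at the study thresholds.

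Whether the knockdown effect differed between AngII and PBS was tested by their interaction. It passed an adjusted p under 0.05 in limma for 0 of 14796 probe sets, and for 0 in each alternative fit that held the PBS arrays, while 814 (5.50%), and 567 named genes (5.57%), had an unadjusted p under 0.05. Among named genes with all 4 group means above 6, *Usp54* was -0.63 with AngII and -0.02 with PBS on the log2 scale, *Pcdh18* -0.40 and 0.06, *Fzd2* 0.34 and -0.06 and *Cacnb2* -0.96 and -0.47, with unadjusted p from 0.0011 to 0.0014. Of the chondrogenic genes, *Tnfaip6* was -0.60 and -0.11, *Olr1* -0.68 and -0.09, *Runx1* -0.59 and -0.21, *Acan* -0.27 and -0.03 and *Spp1* -0.38 and -0.52, with unadjusted p for the difference from 0.0177 to 0.249. None of these differences passed the adjustment.

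**Figure D5:**
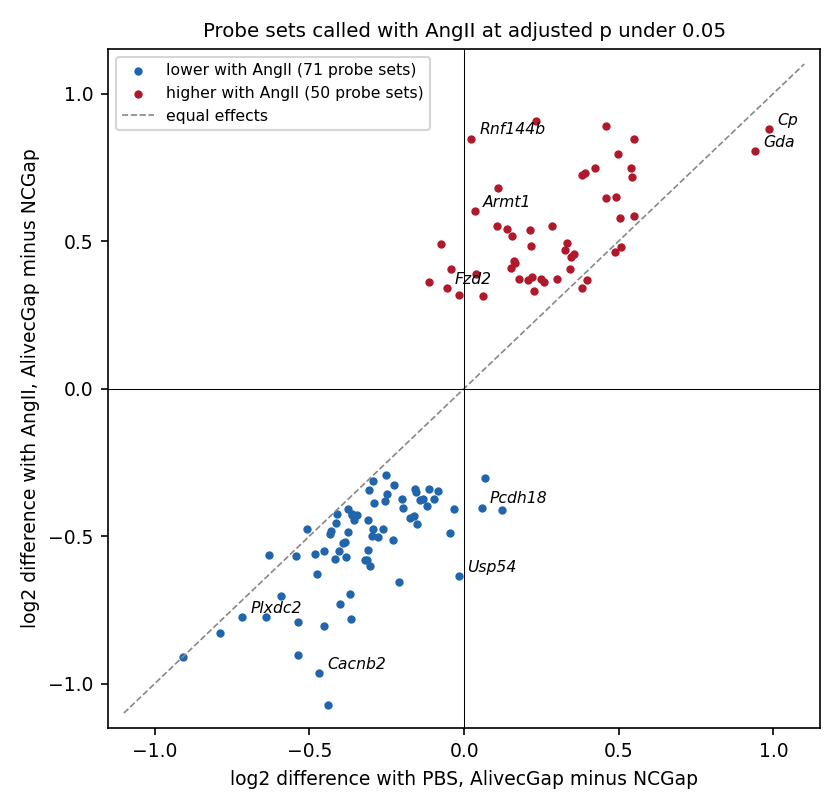
Difference in log2 signal between *Alivec*Gap and NCGap with AngII (vertical axis) against that with PBS (horizontal axis) for the 121 probe sets called with AngII at an adjusted p under 0.05. Points on the dashed line have equal effects; 68 of the 71 lower and 45 of the 50 higher probe sets have the same sign with PBS.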

How the data were processed

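RNA of RVSMCs in 4 groups of 3 was hybridized to Clariom S rat arrays. The authors imported CEL files into Partek Genomics Suite and normalized them with the Robust Multichip Average method, and deposited log2 signals of 23188 probe sets. The build and background options were not given in the sources used here. Scanner files were not analysed here. The number of arrays limits the precision.

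Gene names came from the platform's identifiers and the RefSeq gene table of GRCr8, which matched 15049 probe sets to 1 symbol and left 8139 unnamed. Gene spans came from the same table. A gene with several probe sets is given by the one with the highest mean. RefSeq promoters matched 8487 of the 10184 tested named genes.

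Tests used R 4.3.3 and limma 3.58.1 (lmFit, eBayes) on the 4 group means over 14796 probe sets, two-sided, with Benjamini-Hochberg adjustment over all of them. The methods of the study name an analysis of variance without stating its terms. Where 1 group mean was under 6 it was set to 6 and the fold is a bound. Named genes are the 15 largest falls and 15 largest rises at an adjusted p under 0.05, the 5 chondrogenic genes, and in each of 36 lists the members at an adjusted p under 0.05 and up to 4 with the smallest p, and a few further list members were named after their values were seen. Members and lists were chosen with earlier results of these data known. Same-numbered arrays did not all deviate together, so the replicate number was not used as a block. Alternatives changed the moderation, arrays, filter, scaling, block, weights and probe sets, or left out 1 array. The fit was also run on simulated arrays with planted changes and independent noise, as a check of the code only.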

Additional observations from a re-analysis of the deposited data

How the results depend on the processing

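The counts at an adjusted p under 0.05, 71 lower and 50 higher, depended on the processing more than those at the study thresholds. They were 47 and 27 without moderation of the spread, 14 and 12 with only the 6 AngII arrays, 201 and 134 with a prior that follows the signal, 131 and 78 with a filter at 7 and 16 and 9 with no filter, where 655 were higher at the study thresholds. Leaving out 1 of the 12 arrays gave 11 to 93 lower and 6 to 63 higher at the adjusted threshold, and 410 to 651 higher at the study thresholds. With the replicate number as a block, 85 were lower and 75 higher, and 506 and 468 at the study thresholds. The correlations of deviations were -0.094 to 0.323 for same-numbered arrays and -0.338 to 0.272 for other pairs. Among the AngII arrays they were 0.026 to 0.31 and -0.243 to 0.079. Whether the numbers pair the samples is therefore not settled. The difference between AngII and PBS gave 0 probe sets in every fit that held the PBS arrays. The alternatives were followed in 128 genes, of which 44 were among the 48 lower and 39 higher named genes called. Of these 44, 8 passed in all 23 alternatives. A further 2, *Rnf144b* and *Gda*, passed in the 22 in which they passed the filter. These 2 reached 6 only on the *Alivec*Gap arrays with AngII, where they were high, so their passes are not support. No direction turned in 128 genes followed. These were picked largely by p in the main fit, and the fits share most arrays, so this is a description. The most called genes were missed without *Alivec*Gap AngII replicate 3 or NCGap AngII replicate 2 (31 of 44 each), while the block missed 4. The interferon gene *Ifih1* passed only with the block (adjusted p = 0.0272, against 0.261; up to 0.584 over the alternatives). The cause was not tested. Signals under 6 limit 11 of the 121 called probe sets.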

Other observations

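Stress programs were set beside the named changes. Of 32 tested genes of the unfolded protein and integrated stress response, 27 had a negative log2 fold change with AngII, with a median of -0.11. Over all tested named genes 48.5% were negative. At the study thresholds 2 of the 32 were lower (6.25%) and 0 higher, and none passed the adjusted threshold in limma. *Slc7a11*, the cystine transporter induced by ATF4, had 7.45, 7.91 and 7.51 with *Alivec*Gap, against 8.15, 7.95 and 8.35 with NCGap (adjusted p = 0.212), and *Aldh1l2*, a mitochondrial folate enzyme, 8.31, 8.41 and 8.51 against 8.76, 8.63 and 8.82 (adjusted p = 0.0593). Of 14 heat shock genes and 15 reference genes none was called in either direction, with medians of 0.04 and -0.01.

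Of 30 tested vasoactive receptors the study thresholds gave 4 higher (13.3%) and 1 lower (3.33%), beside 3.10% and 3.17% of all tested named genes. *P2ry6*, the UDP receptor, had 7.57, 7.66 and 7.63 with *Alivec*Gap, against 7.09, 7.23 and 7.40 with NCGap (1.30-fold, adjusted p = 0.0816). *F2rl2*, a protease-activated receptor, averaged 6.88 with *Alivec*Gap and 6.34 with NCGap (adjusted p = 0.12), and *Htr1b*, a serotonin receptor, 7.67 and 7.31 (adjusted p = 0.125). In the Wnt pathway 4 of 35 were higher (11.4%) and 2 lower (5.71%). *Sfrp2*, a secreted inhibitor, had 6.88, 6.77 and 6.75 with *Alivec*Gap against 6.34, 6.24 and 6.54 with NCGap (adjusted p = 0.0593). In cholesterol synthesis 2 of 24 were higher (8.33%) and 1 lower (4.17%). *Dhcr7*, which makes the last step to cholesterol, was 1.30-fold higher. *Insig1*, the brake on SREBP processing, was at 0.823 of its NCGap level, and neither passed the adjusted threshold. The metallothioneins *Mt1* and *Mt2A* were higher by 0.42 and 0.34 with adjusted p of 0.116 and 0.105. Among 12 genes of mucin-type O-glycan biosynthesis 1 was lower and 1 higher (8.33% each). The lower one was *Galnt13*, an initiating transferase, at 0.74 of its NCGap level (adjusted p = 0.0594).

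On the PBS arrays the mean of the 26 interferon genes was 8.07, 8.11 and 8.59 with *Alivec*Gap, against 7.92, 7.80 and 8.01 with NCGap, so the third *Alivec*Gap array with PBS stood above the rest. No gene name was found for 23 of the 71 lower and 11 of the 50 higher probe sets.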
